A study of Drosophila melanogaster with 3 samples.

Results

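The genes described here encode the proteins of the cytoplasmic ribosome of Drosophila melanogaster and their paralogs, that is, related gene copies of the same protein family. Members were the genes whose annotated symbol begins with RpL, RpS or RpLP followed by a number, or is sta, and that have a probe set assigned to 1 gene only. This gave 41 of the 11982 genes measured. The rule itself used no measured value, but it was chosen with earlier results of these data known. They comprised 15 paralog genes, whose symbols end in a or b, in a copy number or in -like, and 26 canonical genes. Both copies of an a/b or numbered pair count as paralogs, since the symbol does not say which is the usual copy. Where a gene had several probe sets, the one with the highest mean was used.

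OSS cells are a continuous line of somatic cells from the Drosophila ovary, labelled as follicular stem cells, and 3 samples of their total RNA were measured. The cells grew exponentially in Shield and Sang's M3 medium with fetal bovine serum, insulin, glutathione and fly extract, without any further treatment. Biotin-labelled cRNA was hybridised to 1 Affymetrix array per sample. All samples formed 1 group of 1 line, so no conditions could be compared. Whether the samples came from separate cultures is not stated, so the SDs and p-values cover the variation among these 3 samples alone, and that variation may be technical.

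A ribosome joins a large and a small subunit, each built of ribosomal RNA and many proteins that are needed in matched amounts. The small subunit decodes the mRNA, the large subunit forms the peptide bond, and a protein stalk on the large subunit recruits the elongation factors. In flies, losing 1 copy of many of these genes gives the Minute phenotype of slow development and short bristles, and the promoters of most of them carry the polypyrimidine TCT initiator. Several families have an additional copy, and some of these copies are known from Drosophila mainly in ovary or testis germ cells.

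Levels are the deposited log2 values per probe set. They ran upward from 2.39, the lowest value on every array, and the number of arrays limits their precision. Background was set at 2.49, the 95th percentile of the means of 112 odorant and gustatory receptor genes, of which Gr39a was the highest at 2.79. A gene was called above or below it at an adjusted p under 0.05 (limma, one-sided each way, Benjamini-Hochberg adjustment over all genes). Of the 112 receptor genes, 105 (93.75%) were themselves called below this level. A call below therefore does not set a gene apart from the receptor genes. Probe sets differ in affinity, so a higher value of one gene than of another does not measure more transcript. Of the somatic ovary markers tj, zfh1, Egfr, fs(1)Yb, eya, ct and cas, 4 of 7 were above background (57.1%, beside 47.0% of all genes) and ct and cas below, with tj at 6.83 ± 0.69 (SD, n = 3). Fas3 was not analysed here. All 7 measured germline markers, vas, nanos, bam, osk, orb, AGO3 and zpg, were below background at 2.39 (100%, beside 49.6% of all genes). Each had an SD of 0, which understates the error of these calls.

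Ribosomal protein genes were above background in 35 of 41 cases (85.4%), beside 47.0% of the 11870 genes outside the receptor list. A further 5 were below background (12.2%, beside 49.6% of all genes), and 1 was unresolved. The median level was 10.73 over the 41 members and 2.47 over all genes. Among paralogs, 9 of 15 were above background, 5 below and 1 unresolved, whereas all 26 canonical genes were above. The medians were 4.81 over the paralogs and 11.25 over the canonical genes. Probe sets of shared sequence gave 14 of the canonical values and no paralog value. A further 8 paralog and 44 canonical genes had no single-gene probe set. The medians therefore do not compare transcript amounts. The difference between the classes was not tested. At a stricter level, 1 log2 unit above background, 8 of 15 paralogs and 26 of 26 canonical genes were above, beside 25.5% of all genes. With Gr39a as level, 9 and 26 were above, beside 37.4% of all genes.

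**Figure D1:**
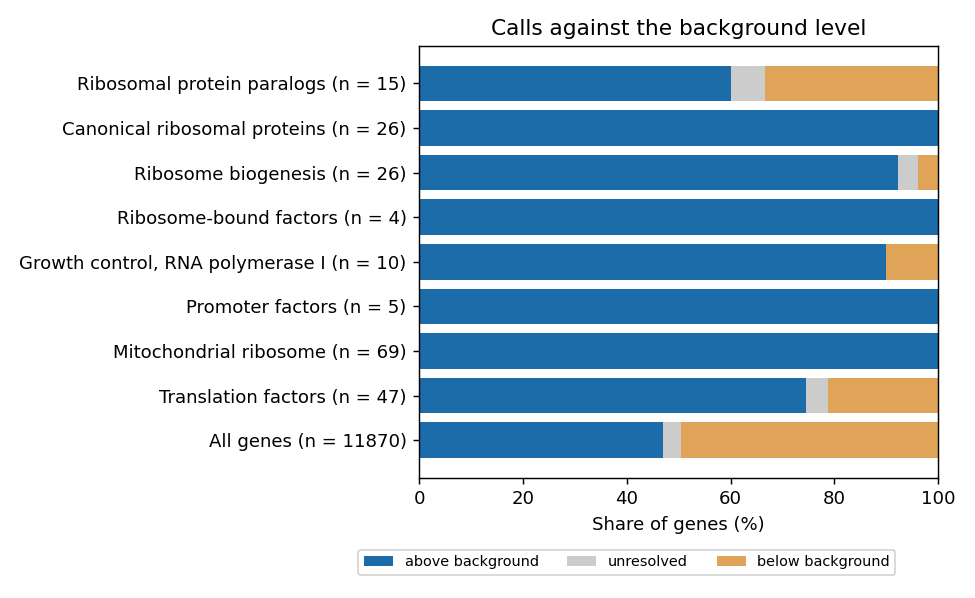
Share of genes in percent (x axis) above background, unresolved and below background for ribosomal protein paralogs, canonical ribosomal protein genes, lists of related genes and all genes outside the receptor list (y axis, with n). The paralog bar holds 9 of 15 genes above background and the canonical bar 26 of 26.

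Members also filled much of the top of the value range. They made up 15 of the 20 genes with the highest means, 27 of the 50 highest and 30 of the 100 highest. Of the 41 members, 30 had a mean of 9 or over, namely all 26 canonical genes and the paralogs RpL10Ab, RpS28b, RpL37-1 and RpL34a. These are ranks of probe set values and do not rank transcripts.

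In the 3 paralog families whose a/b or numbered copies were all measured, 1 copy was far above background and the others were below it. RpL10Ab, a protein of the L1 stalk of the large subunit, measured 11.99, 11.58 and 12.09 on the 3 arrays (11.89 ± 0.27; SD, n = 3). Its partner RpL10Aa measured 2.39 on every array, the lowest value of the table. RpL10Ab was above background and RpL10Aa below it (limma, adjusted p = 6.4e-05 and 3.5e-05). The median of the receptor genes was also 2.39, so the call below does not set RpL10Aa apart from them.

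RpS28 is a small-subunit protein near the exit of the mRNA channel, and its family has 3 genes. RpS28b measured 11.97, 11.08 and 11.88 (11.65 ± 0.49; SD, n = 3), and RpS28a and RpS28-like both measured 2.39 on every array. Only RpS28b of the 3 was above background (limma, adjusted p = 0.00025). RpL37, a zinc-binding protein of the large subunit, has a pair of copies. RpL37-1 measured 11.43, 10.87 and 11.40 (11.23 ± 0.32), and RpL37-2 measured 2.39 on every array. RpL37-1 was above background and RpL37-2 below it (limma, adjusted p = 0.00011 and 3.5e-05). The chosen probe sets of RpS28a, RpS28b, RpS28-like, RpL37-1 and RpL37-2 all have the plain suffix that Affymetrix gives to sets designed for 1 transcript.

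**Figure D2:**
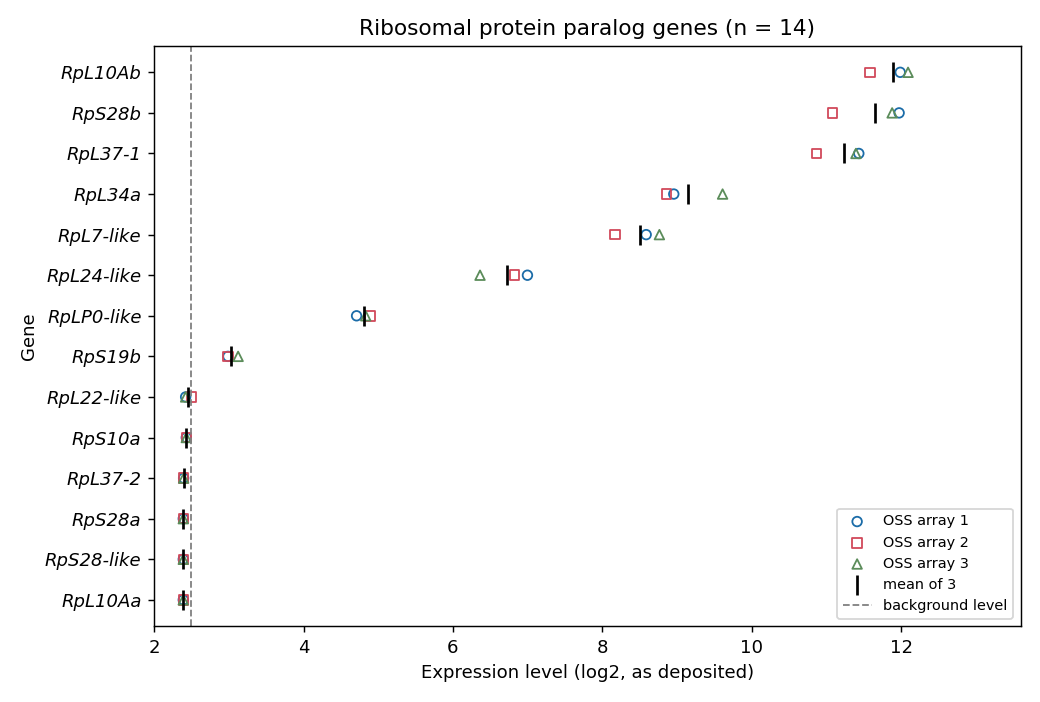
Deposited log2 expression level (x axis) of 14 paralog genes (y axis, ordered by mean) on the 3 OSS arrays, with the mean as a bar and the background level of 2.49 as a dashed line. RpL10Ab, RpS28b and RpL37-1 lie over 10, while RpL10Aa, RpS28a, RpS28-like and RpL37-2 lie at 2.39 with the 3 points on top of each other.

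RpS19b, RpS10a and RpL22-like had values near background. RpS19b, a copy of the small-subunit protein RpS19 that is enriched in germ cells, measured 2.99, 2.99 and 3.12 (3.03 ± 0.078; SD, n = 3). It was above background (limma, adjusted p = 0.0022) and above Gr39a, but under the stricter level. RpS10a, a copy of the small-subunit protein RpS10, measured 2.43 on every array and was below background (limma, adjusted p = 9.7e-05). It lay 0.0067 to 0.016 log2 units above the level and was called above with odorant receptors alone, the 90th percentile or bacterial controls as background (limma, adjusted p from 0.0026 to 0.021). RpL22-like, a copy of the large-subunit protein RpL22 enriched in testis and germ cells, measured 2.42, 2.50 and 2.42 and was unresolved (limma, adjusted p = 0.18 for below). Without array 2 it was called below background (limma, adjusted p = 0.010). The 7 germline markers were all at 2.39 on these arrays. Of 7 testis markers, 1 was above background (14.3%, beside 47.0% of all genes), mia at 2.52 on every array. The value of mia lay 0.032 log2 units over the level and under Gr39a, and its SD of 0 understates the error. A further 5 testis markers were below background, and twe at 2.69 ± 0.17 was unresolved. The partner copies RpS19a, RpS10b and RpL22 were not analysed here.

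The -like genes of the large subunit with relatives among ribosome assembly factors were above background. RpL7-like, related to yeast Rlp7, measured 8.59, 8.17 and 8.76 (8.51 ± 0.31; SD, n = 3). RpL24-like, related to yeast Rlp24, measured 7.00, 6.82 and 6.36 (6.73 ± 0.33). RpLP0-like, related to yeast Mrt4, measured 4.71, 4.89 and 4.83 (4.81 ± 0.091), and RpLP0, the canonical protein at the base of the stalk, measured 10.94, 10.60 and 10.50 (10.68 ± 0.23). All 4 passed the test, with the highest adjusted p at 0.00055 for RpL24-like (limma). RpL34a measured 8.96, 8.86 and 9.61 (9.14 ± 0.41) and was above background too, and its copy RpL34b was not analysed here.

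The calls below background rest on values identical on all arrays. RpL10Aa, RpL37-2, RpS10a, RpS28a and RpS28-like had an SD of 0, which describes the deposited summaries and understates the error. With 1 SD pooled over genes, these 5 stood -0.058 to -0.098 log2 units from the level and none was called below (adjusted p from 0.725 to 0.770). The 9 paralogs above background were also called with the pooled SD.

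Canonical genes were all above background with the highest probe set per gene, from RpL29 at 9.15 to RpL23 at 12.90, with adjusted p from 9.5e-06 to 0.00056 (limma). With probe sets of shared sequence left out, 11 of the 26 had no set, and RpL3, RpS30 and RpS7 stood 2.53, 0.52 and 0.16 log2 units above background, against 7.39, 6.96 and 9.62 with the sets used. The SDs of the 26 genes ran from 0.12 to 0.61 with a median of 0.26. The 16 large-subunit genes had a median level of 11.34 and the 10 small-subunit genes one of 11.23.

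The 5 canonical genes with the highest values had SDs from 0.12 to 0.32. RpL23, which lies at the subunit interface where eIF6 binds in yeast, measured 13.14, 12.69 and 12.89 (12.90 ± 0.22; SD, n = 3). RpL41, which encodes a very short basic peptide, measured 12.71, 12.46 and 12.70 (12.62 ± 0.14). RpS15 measured 12.75, 12.39 and 12.71 (12.62 ± 0.20). The zinc-binding protein genes followed: RpS29 of the small subunit measured 12.65, 12.45 and 12.67 (12.59 ± 0.12), and RpL37A of the large subunit measured 12.92, 12.29 and 12.45 (12.55 ± 0.32). RpS29 had the smallest SD of the 26, and array 2 was the lowest for each of these 5 genes.

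The genes of the acidic stalk proteins RpLP1 and RpLP2, which contact elongation factors, measured 12.44 ± 0.18 and 12.06 ± 0.23 (SD, n = 3). Their values on the 3 arrays were 12.46, 12.25 and 12.60 for RpLP1, and 12.32, 11.93 and 11.92 for RpLP2. Some ribosomal proteins are made as fusions to ubiquitin or a ubiquitin-like protein. RpS27A, fused to ubiquitin, measured 11.86, 11.45 and 11.74 (11.68 ± 0.21). RpL40, also fused to ubiquitin, measured 12.39, 11.74 and 12.95 (12.36 ± 0.60), a spread of 1.21 log2 units between its highest and lowest array. RpS30, fused to a ubiquitin-like protein, measured 9.58, 9.16 and 9.60 (9.45 ± 0.25).

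With the sets used, the canonical genes with the lowest values exceeded background by over 6 log2 units. RpL29 measured 9.60, 8.91 and 8.95 (9.15 ± 0.39; SD, n = 3). RpL3, which reaches toward the peptidyl transferase centre, measured 9.77, 9.53 and 10.32 (9.87 ± 0.41), and RpS20 measured 10.16, 9.60 and 10.58 (10.11 ± 0.49). The largest SDs were those of RpL27, RpL40 and RpL28. RpL28 measured 10.26, 9.59 and 10.79 (10.21 ± 0.60), and RpL27 measured 10.24, 9.72 and 10.94 (10.30 ± 0.61). RpL40, RpL28 and RpL27 had array 3 the highest and array 2 the lowest. Other canonical genes, RpL3 and RpS20 among them, had the same order, so it was not particular to these genes. The 9 remaining canonical genes, among them RpL32, a common reference gene in flies, had means between 10.62 and 11.73.

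**Figure D3:**
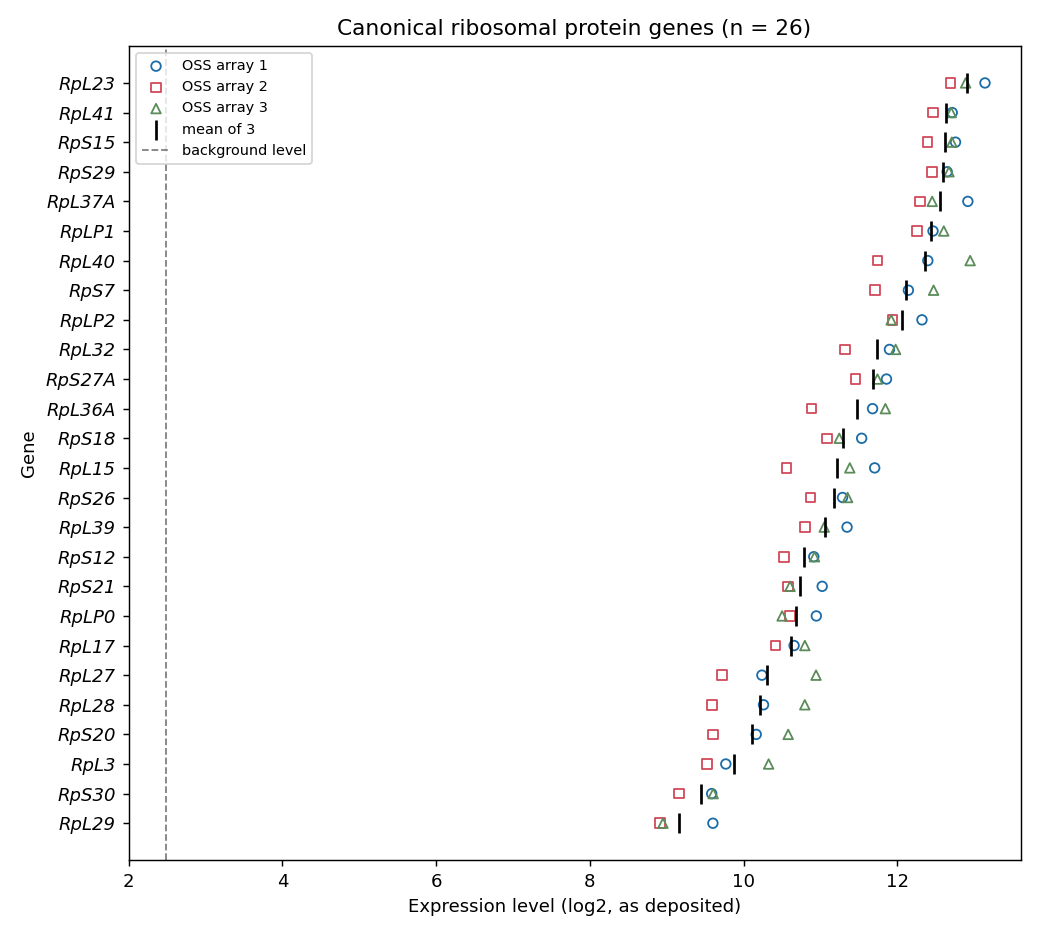
Deposited log2 expression level (x axis) of the 26 canonical genes (y axis, ordered by mean) on the 3 OSS arrays, with the mean as a bar and the background level of 2.49 as a dashed line. Array 2 is the lowest for 24 of the 26 genes, and no gene has an array under 8.91.

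The highly measured members moved together between arrays. Of the 30 members with a mean of 9 or over, 28 had their lowest value on array 2, with RpLP0 and RpLP2 the exceptions. Their median deviation from the gene's own mean was 0.14 log2 units on array 1, -0.27 on array 2 and 0.16 on array 3. Of 60 other genes in that range whose values were not identical on all arrays, 38 (63.3%) were lowest on array 2, and their median deviations were 0.18, -0.18 and -0.035. After quantile normalization between arrays, 8 of the 30 members were lowest on array 2, and their median deviation there was -0.025. Of the other 60 genes, 12 were then lowest on array 2, with a median deviation there of 0.051. Quantile normalization gives every array the same set of values by rank. Members made up 27 of the 50 genes with the highest means, so this step removes much of any shift they share. The cause of the shift was not tested. The median SD of the 30 members was 0.27 as deposited and 0.15 after quantile normalization. For the other 60 genes it was 0.30 and 0.23.

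**Figure D4:**
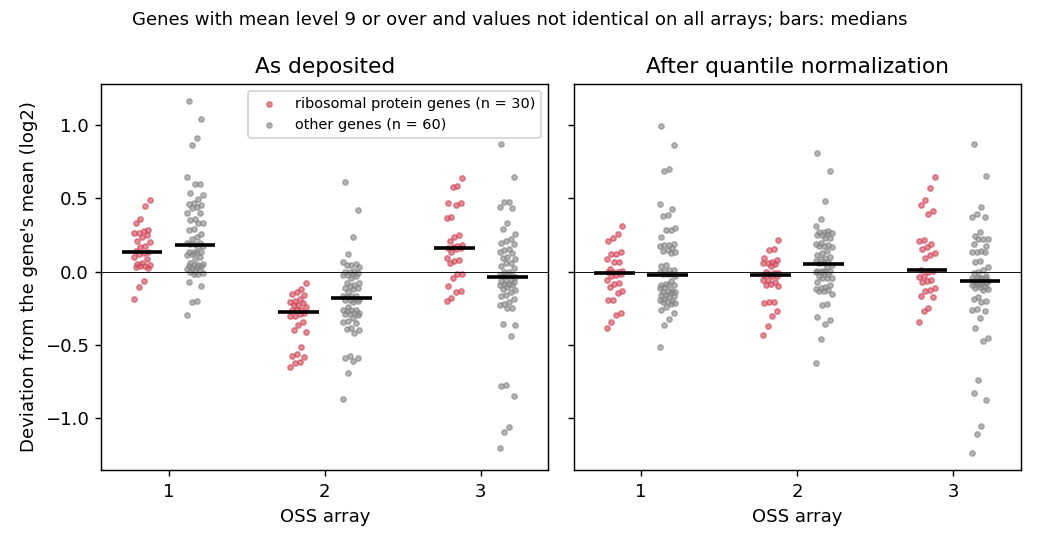
Deviation of each array from the gene's mean in log2 units (y axis) by OSS array (x axis), as deposited on the left and after quantile normalization on the right, for 30 ribosomal protein genes and 60 other genes with a mean level of 9 or over. Bars are medians; the member median on array 2 is -0.27 as deposited and -0.025 after quantile normalization.

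Probe sets of 1 gene disagreed in the 4 members that had several. RpS29 measured 12.59 ± 0.12 and 11.47 ± 0.40 with 2 probe sets and 2.39 with the third (SD, n = 3). RpL3 measured 9.87 ± 0.41, 5.01 ± 0.63 and 2.40. The middle RpL3 set measured 4.72, 5.73 and 4.58, so its highest array was array 2, whereas the set used had its lowest value there. RpS7 measured 12.11 ± 0.38 with one set and 2.64 ± 0.054 with the other, and RpS30 9.45 ± 0.25 and 3.01 ± 0.064. With the lowest set per gene, RpS29 and RpL3 were below background. Of the 26 canonical genes, 14 rested on a probe set with the suffix for sequence shared between transcripts, and no paralog did. Close copies and pseudogenes can share signal with such sets, so those 14 values are uncertain.

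**Figure D5:**
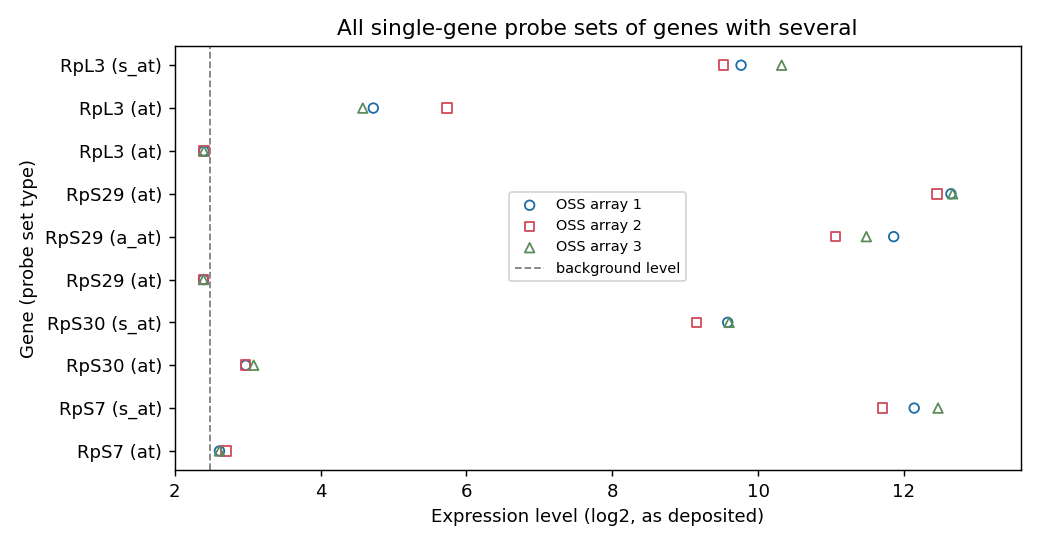
Deposited log2 expression level (x axis) on the 3 OSS arrays for each single-gene probe set of RpL3, RpS29, RpS30 and RpS7 (y axis, with the probe set suffix); the dashed line is the background level of 2.49. RpS29 has 2 sets over 9 and the other genes 1 each, and RpL3 and RpS29 each have 1 set at about 2.4.

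Other genes of ribosome production were mostly above background. Of 26 measured genes listed for ribosome assembly and the nucleolus, 24 were above (92.3%, beside 47.0% of all genes), 1 below and 1 unresolved. Their median level was 5.23. The genes called above include Rtf1 at 5.54 ± 0.15, a transcription elongation gene. eIF6, the factor that keeps the large subunit from joining early, measured 8.04 ± 0.028, and the nucleolar GTPase gene Non1 measured 7.77 ± 0.49 (SD, n = 3). The lowest of the list were Mat89Ba at 2.78 ± 0.055 and the kinase gene RIOK1 at 2.41. RIOK1 was the member below background. All 4 genes for ribosome-bound factors were above (100%, beside 47.0% of all genes). Tctp measured 10.93 ± 0.48 and the small-subunit scaffold gene Rack1 10.74 ± 0.30. Nacalpha of the nascent chain complex measured 10.34 ± 0.25 and its partner bic 4.88 ± 0.16.

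Growth control genes were above background in 9 of 10 cases (90%, beside 47.0% of all genes). At the stricter level, 8 of 10 were above, beside 25.5% of all genes. The RNA polymerase I factor gene Tif-IA measured 6.10 ± 0.087 and larp, whose protein binds ribosomal protein mRNAs in mammals, 5.08 ± 0.36 (SD, n = 3). The TOR complex genes raptor and rictor measured 2.60 and 2.45 ± 0.020, and rictor was below background. The call of raptor above background rests on an SD of 0 at 0.11 log2 units over the level, and raptor was under Gr39a. S6k, the kinase that phosphorylates RpS6, measured 4.24 ± 0.17. All 5 promoter factor genes were above background (100%, beside 47.0% of all genes), and 3 of 5 were above the stricter level (beside 25.5%). TfIIA-L measured 6.75 ± 0.22, Dref 4.94 ± 0.23, Tbp 3.26 ± 0.0096 and Trf2, which acts at TCT promoters, 2.97 ± 0.021.

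The other ribosome of the cell gave no gene below background. All 69 measured genes of mitochondrial ribosomal proteins were above (100%, beside 47.0% of all genes), with a median level of 5.37. They ran from mRpS6 at 2.96 ± 0.10 and mRpL3 at 2.99 ± 0.055 to mRpS17 at 7.11 and mRpS21 at 7.79 (SD, n = 3). Translation factor genes had 35 of 47 above (74.5%), 10 below (21.3%, beside 49.6% of all genes) and 2 unresolved. The highest were eEF5 at 11.57 ± 0.55 and eIF1 at 9.74 ± 0.42. Like the ribosomal protein family, that family held copies at the lowest value of 2.39, among them eEF1alpha2 and eIF3d2. These shares were not tested against those of the ribosomal protein genes.

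Some members host small nucleolar RNAs, which guide the modification of ribosomal RNA and are often encoded in introns of ribosomal protein genes. In the RefSeq table of assembly Release 6 plus ISO1 MT, 10 of the 41 members (24.4%) had 1 or more snoRNA genes inside their span, against 96 of all 13962 protein-coding genes (0.688%). RpL10Ab was the 1 paralog of 15 among them, and 9 of 26 canonical genes made up the rest. RpS7 held 7 snoRNA genes, RpL28 5, and RpL3 and RpL17 4 each. All 10 hosts were above background, but so were 35 of the 41 members and all 26 canonical genes, beside 47.0% of all genes. The count therefore does not set the hosts apart from other members. The position of a gene does not enter its level, and no relation of snoRNA content to level was tested.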

How the data were processed

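The authors deposited log2 expression values per probe set for 3 arrays of 1 group. Per the labels, scanner files entered custom scripts; background correction, scaling and summary method are not given in the sources used here, and the log base was taken as 2 from the values. Array medians lay between 2.399 and 2.401, so values were used as deposited; these medians lie near the lowest value and do not test the scaling of high values. Of 18952 probe sets, 13647 named 1 gene and 402 several, through the platform annotation; the others were not used. In the RefSeq table, 93 symbols fit the member rule, and 52 of these genes (8 paralogs, 44 canonical) had no single-gene probe set and were not analysed here. Tests used limma 3.58.1 in R 4.3.3 (intercept-only fit, eBayes) on all 11982 genes; SDs under 1e-06 were set to 0. The test was checked on simulated data for calls above background only, with SDs taken from genes over the level. Calls below background were not checked in this way. Of the paralogs, 1 enters the counts and is not reported here. Genes named were the other paralogs, the 5 highest and 5 lowest canonical genes, the 3 largest SDs, genes with disagreeing probe sets, stalk and ubiquitin fusion genes, and 2 highest and 2 lowest genes of each other list, besides S6k, Dref and others named after their values were seen. Members and lists were chosen with earlier results of these data known. Alternatives changed the background genes, percentile and level, the probe set per gene, shared probe sets, scaling, spread, dim probe sets and arrays used.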

Additional observations from a re-analysis of the deposited data

How the results depend on the processing

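Over 9 counts or shares and 31 named genes, 16 alternatives were tried, and all of them were planned. Of 132 values of the counts and shares, 124 stayed within 1.5 times, and of 487 values of the genes, 469 kept their direction and side of the threshold. Members above background numbered 33 to 36 of 41, except for 24 of 30 without probe sets of shared sequence and 35 of 36 with dim probe sets left out. Leaving out dim probe sets removes the 5 members called below before the count, so it does not test the calls. Leaving out 1 array gave 35 each time. Without probe sets of shared sequence, 15 of 15 canonical genes were above background and 21 of 30 members above the stricter level; 11 genes had no other set, and RpS7 and RpS30 were under that level with the sets left to them, at 0.16 and 0.52 above background. The share over all genes was 25.5% at the stricter level and 95.2% with dim probe sets left out. RpL22-like lay 0.024, 0.025 and 0.033 log2 units above the level, without passing the test, with odorant receptors, the 90th percentile and bacterial controls as background. It was called below at the 99th percentile, with the highest background gene, at the stricter level and without replicate 2 (limma, adjusted p = 0.0087, 0.0011, 5.8e-05 and 0.010). With odorant receptors, the 90th percentile and bacterial controls RpS10a lay 0.0067, 0.0084 and 0.016 above the level and was called above. RpS19b stood -0.45 log2 units from the stricter level. With the lowest probe set per gene RpS29 was -0.053 and RpL3 -0.048 from the level. Of the 3 probe sets that members share with other genes, 0 were above background, against 1 with odorant receptors, 1 with the 90th percentile, 1 with bacterial controls, and 0 to 1 without 1 array. The cause of the changes other than those from testing fewer genes was not tested. No paired analysis was possible because there is no other group to pair the 3 arrays with.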

Other observations

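A further 3 probe sets carried a member together with another gene and entered no result above. The set shared by RpL28 and snoRNA:Or-CD12, a snoRNA gene inside RpL28, measured 2.62, 2.62 and 3.04 (2.76 ± 0.24; SD, n = 3) and was unresolved (limma, adjusted p = 0.17 for above), while the single-gene set of RpL28 measured 10.21. The sets shared by RpLP0 and euc and by RpL7-like and CG34164 measured 2.39 and 2.45 on every array and were below background.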
